A study of Mus musculus with 2 samples.

Results

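The genes that present antigen on MHC class II were followed through single cells of the mouse colon crypt. The 8 genes were taken from the deposited matrix by symbol, and all 8 were among its 19294 gene symbols. They were *Cd74*, *H2-Aa*, *H2-Ab1*, *H2-Eb1*, *H2-DMa*, *H2-DMb1*, *H2-DMb2* and *Ciita*. The cells came from untreated Tcf4GfpCre/+ RosamTmG/+ animals between 4 and 10 months of age. In this line the *Tcf4* promoter drives Cre, so that a cell with a history of *Tcf4* expression, and its descendants, switch from membrane Tomato to membrane green fluorescent protein. The Cre allele also replaces 1 copy of *Tcf4*, so every animal was heterozygous for the gene and no wild-type cells were compared. Crypt cells were sorted as *Tcf4* Lin− cells, which had no history of *Tcf4* expression, and as MIX cells, which carried both colours. The sorted cells were mixed with human carrier cells and profiled by Drop-seq. Samples 1 to 3 were combined in the first of 2 pools and samples 4 to 6 in the other.

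MHC class II molecules display peptides from proteins taken up by the cell to CD4+ T cells. An α and a β chain pair in the endoplasmic reticulum with the invariant chain, which blocks the groove and guides the complex to endosomes, where proteases trim it and the DM heterodimer exchanges its last fragment for a peptide. B cells, dendritic cells and macrophages carry the pathway constitutively, whereas intestinal epithelial cells are known to take it up under interferon-γ. CIITA, the class II transactivator, joins factors bound to the X and Y boxes of the class II promoters and switches the genes on together.

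Of the 8 genes, 6 lie close together on mouse chromosome 17, with positions here from GENCODE M21 on GRCm38 (mm10). The chain genes *H2-Ab1* (chr17:34257689-34269419), *H2-Aa* (chr17:34282744-34287823) and *H2-Eb1* (chr17:34305867-34316674) neighbour the DM genes *H2-DMa* (chr17:34119541-34139101), *H2-DMb2* (chr17:34143307-34151555) and *H2-DMb1* (chr17:34153072-34160230). *Ciita* is at chr16:10480059-10528418. Since the members share a known promoter grammar, the stretch from 140 to 31 bases before the RefSeq start site (GRCm38.p6) is shown for 3 genes that were abundant in B cells, with motif matches in capitals.
H2-Aa: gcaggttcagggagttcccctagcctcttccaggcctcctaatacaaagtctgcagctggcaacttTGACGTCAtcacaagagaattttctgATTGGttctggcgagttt
H2-Eb1: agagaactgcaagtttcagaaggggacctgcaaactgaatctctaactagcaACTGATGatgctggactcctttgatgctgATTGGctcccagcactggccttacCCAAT
H2-DMb2: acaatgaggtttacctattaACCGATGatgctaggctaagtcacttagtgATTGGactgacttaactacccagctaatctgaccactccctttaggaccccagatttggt
The stretches are *H2-Aa* on the minus strand (chr17:34287854-34287963), *H2-Eb1* on the plus strand (chr17:34305727-34305836) and *H2-DMb2* on the plus strand (chr17:34145109-34145218). Those of *H2-Aa* and *H2-Eb1* lie outside the GENCODE genes, whereas that of *H2-DMb2* lies within the span of its GENCODE gene, which begins before the RefSeq start site. The capitals mark 3 letter patterns searched on both strands of 300-base windows. They were ACNGATG, the core of the X box, ATTGG, the Y box, read as CCAAT on the other strand, and TGACGTC, the core of a cAMP response element, which was added after the *H2-Aa* sequence had been read. Of 32851 such windows, 9.85% held the X box core, 37.4% the Y box and 3.21% the cAMP response element. An X box core followed on the same strand by a Y box after 15 to 25 bases was present in 35 windows (0.107%). These 35 included *H2-Eb1*, with a gap of 22 bases, and *H2-DMb2* and *H2-DMb1*, each with 23. Between *H2-DMb1* and *H2-DMb2*, 31 of the 35 bases from X to Y box were identical. Among 20 other genes of the pathway with an entry, *H2-Eb2* held the pair. The *H2-Aa* window had the cAMP response element and a Y box without that pair, and an X box core only on the opposite strand, from 232 to 226 bases before the start, and no pair was in the windows of *H2-DMa*. A match is a description of letters and not a binding site. The promoter table had entries for 5 of the 8 members and none for *Cd74*, *H2-Ab1* or *Ciita*.

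The matrix held 1023641 unique molecular identifiers (UMIs, each standing for 1 captured transcript) in 1117 barcodes. The authors placed 516 cells in 4 clusters, of 47 B cells, 93 epithelial *Pigr*+ cells, 186 induced and 190 natural intraepithelial lymphocytes (iIELs and nIELs), and 106 cells in subclusters of 32 stem cells, 32 secretory precursors and 42 absorptive precursors. Of the subcluster cells, 14 were called IELs in the table of all cells, so IELs were taken as the 362 outside the subclusters. Depth per assigned cell ranged from 504 to 23205 UMIs with a median of 1126. Joining barcodes of the same set that differ by 1 base left 493 of the 516 assigned cells and 79 of the 93 epithelial cells. Whether such barcodes are 1 cell was not tested. No barcode sequence occurred in both sets of barcodes, which end in X1 (1042) or X2 (75) and could not be tied to a pool. All cells form 1 sample, so there are no replicates and no test. Intervals are exact 95% intervals that cover counting error only and treat UMIs as independent. The clusters were drawn from these same counts, so each difference between clusters is a description.

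Among the sorted cells placed in clusters, class II RNA was found mainly in the B cells. The paper itself plots *H2-Aa*, *Cd74* and *H2-Eb1* as B cell markers. Of 2010 class II UMIs in assigned cells, 92.3% were in the 47 B cells, at 24181 per 1000000 UMIs (CPM, interval 23093 to 25307) against 200 CPM in the other assigned cells, a 121-fold difference (103 to 143). Counting genes with at least 10 UMIs, 7 of the 7 members that reached this number were at least 4-fold higher in B cells, where 2.86% of 9022 genes were, and none was 4-fold lower, where 3.11% of genes were. *H2-DMb1* and *H2-DMb2*, with 8 and 2 UMIs outside B cells, reached this number only through the B cells, so it partly set the tally. The median fold of the 7 members was 167, against 1.12 over all genes. Against the epithelial cluster alone, 7 of 7 members were at least 4-fold higher in B cells, where 7.24% of 5194 genes were, with *H2-Aa* at 318-fold (108 to 1552) and *Cd74* at 72.4-fold (53.2 to 101). Only *Cd74*, with 42 UMIs, reached 10 in the epithelial cluster. The others passed this minimum through the B cells, where they were high, so the minimum partly set the tally. *Ciita*, at 5 UMIs in all, did not reach the minimum.

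*Cd74*, which encodes the invariant chain and lies at chr18:60803848-60812652 on GRCm38, led the group. It had 940 UMIs in B cells, or 12254 CPM (11483 to 13063), and all 47 cells held at least 1. The other assigned cells had 57 UMIs, or 73.5 CPM, a 167-fold difference (127 to 222). The α and β chain genes followed. *H2-Aa*, the I-A α chain, had 295 UMIs in B cells (3846 CPM) and 15 elsewhere, 199-fold higher (119 to 360). *H2-Ab1*, its β chain partner, had 319 UMIs in B cells (4158 CPM) and 30 elsewhere, 107-fold higher (73.8 to 162). *H2-Eb1*, the I-E β chain, had 219 UMIs in B cells (2855 CPM) and 12 elsewhere, 184-fold higher (103 to 362). In B cells the CPM intervals of *H2-Aa* and *H2-Ab1* overlapped and *H2-Eb1* lay below both. Drop-seq reads transcript 3′ ends, so these levels were not divided by length.

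The DM genes, whose products load the peptide, were present at lower levels. *H2-DMb2* had 47 UMIs in B cells (613 CPM, 450 to 815) in 29 cells, and 2 UMIs in all other assigned cells, a ratio of 237 (62.2 to 2018). *H2-DMa*, the α chain of DM, had 21 UMIs in 14 B cells (274 CPM) and 29 UMIs elsewhere, 7.32-fold higher (3.97 to 13.3). *H2-DMb1* had 11 UMIs in 7 B cells (143 CPM) and 8 elsewhere, 13.9-fold higher (5.09 to 39.8). The intervals of *H2-DMa* and *H2-DMb1* overlapped. *Ciita*, the transactivator, had 3 UMIs in 2 B cells and 2 UMIs in other cells, a ratio of 15.2 whose interval ran from 1.74 to 181.

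**Figure D1:**
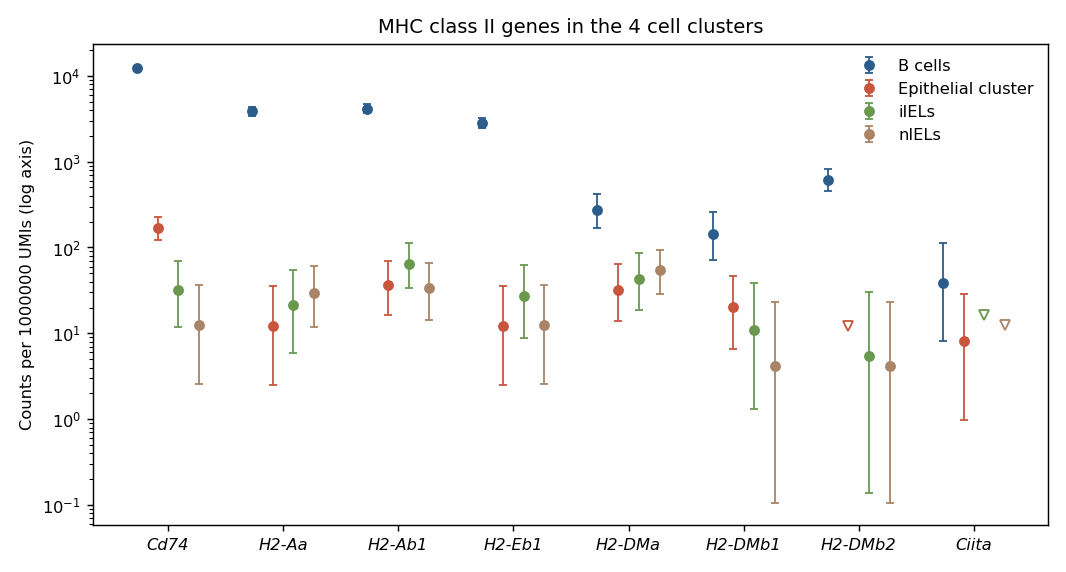
Counts per 1000000 UMIs (log axis) of the 8 genes in B cells, the epithelial cluster, and iIELs and nIELs outside the epithelial subclusters. Points are levels over summed cells, bars exact Poisson 95% intervals, and open triangles mark groups with 0 UMIs, drawn at the level of 3 counts. The B cell interval lies above those of the other 3 clusters for each gene but Ciita, where it overlaps those of the other clusters, and Cd74 is the only gene whose epithelial interval lies above both IEL intervals.

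The members were found together within single B cells. The median B cell held UMIs of 5 of the 8 genes, 43 of 47 cells held at least 4, and the lowest number was 2. *Cd74* ranged from 1 to 130 UMIs per cell with a median of 16. *H2-Aa* and *H2-Ab1* were each detected in 45 cells and in 43 of them together. Since nearly every B cell held each gene, this overlap says little about a link between them. All 8 genes summed to between 0.587% and 7.90% of a cell's UMIs with a median of 2.14%, so the lowest and highest cells differed widely. Over the 47 cells, normalised to each cell's depth, *Cd74* correlated with *H2-Ab1* (Pearson r = 0.748, Spearman rho = 0.729), *H2-Aa* (0.624 and 0.385) and *H2-Eb1* (0.608 and 0.419). Between the chain genes the values were 0.654 and 0.506 for *H2-Ab1* with *H2-Eb1*. They were lower for *H2-Aa* with *H2-Ab1* (0.494 and 0.292) and with *H2-Eb1* (0.456 and 0.285). These cells share libraries and vary in depth, and the correlations are descriptions.

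The label of the cluster was checked against markers. Of 15 B cell markers, all were detected, with 817 UMIs, led by *Igkc* (301 UMIs in 34 cells), the κ light chain, and *Ms4a1* (86 UMIs in 26 cells), which encodes CD20. A B cell marker UMI was present in 43 cells. The remaining 4 held 375 class II UMIs, of which 293 were in 1 cell. Markers of other antigen-presenting cells were also in the cluster, 9 of the 16 dendritic cell and macrophage markers in the matrix, with 81 UMIs in 9 cells. The macrophage complement genes *C1qa*, *C1qb* and *C1qc* and also *Adgre1* were at 0. In 3 cells these markers outnumbered the B cell markers.

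Of these 3 cells, 2 were high in class II RNA. The first had 293 class II UMIs of 3710 (7.90%), 21 UMIs of *Lyz2*, 1 each of *Flt3*, *Zbtb46* and *Csf1r*, and no B cell marker. The second had 60 of 825 (7.27%), with 16 UMIs of *Lyz2* and 13 of B cell markers. The third had 46 of 1757 (2.62%), near the cluster median of 2.14%, with 26 UMIs of *Lyz2* and 4 of *Cx3cr1*. The first 2 were the highest cells of the cluster by class II share. Without the 3 cells, the B cell fold over other cells was 103 (87.6 to 123) for the summed members and 146 (111 to 195) for *Cd74*, and 7 members were again at least 4-fold higher. T lineage markers had UMIs in 22 cells of the cluster, which held 689 class II UMIs (16547 CPM). Their part in the spread between cells was not tested.

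**Figure D2:**
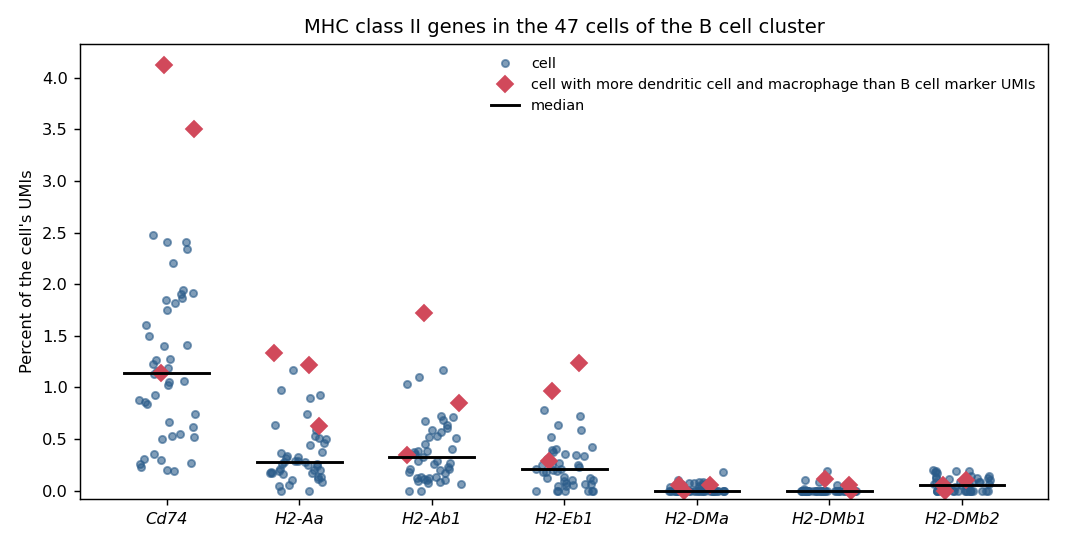
Percent of each cell's UMIs that came from each of 7 class II genes, in the 47 cells of the B cell cluster. Circles are cells, lines medians, and diamonds the 3 cells with more dendritic cell and macrophage than B cell marker UMIs, of which 2 hold the highest values of Cd74.

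*H2-DMb1* and *H2-DMb2* encode alternative β chains of DM and were counted unevenly. In B cells, 47 of 58 DM β UMIs were from *H2-DMb2*, 81.0% (68.6 to 90.1), with 82.7% in barcode set X1 and 4 of 6 UMIs in X2. In the epithelial cluster, all 5 DM β UMIs were from *H2-DMb1* and none from *H2-DMb2*, which allows an *H2-DMb2* share of up to 52.2%. The interval in B cells lay above that bound. IELs had 3 and 2 UMIs. The longest coding transcripts of the 2 genes were 94.6% identical over 1219 aligned bases, and their last 300 bases, which a 3′ method reads, were 74.8% identical and shared no 31-base word. Reads further upstream could still have been split between these copies in counting, so the split is uncertain.

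In the epithelial cluster, *Cd74* stood apart from the other members. It had 42 UMIs in 19 of 93 cells (169 CPM, 122 to 229), against 9 UMIs in 8 of 362 IELs (21.2 CPM, 9.68 to 40.2), an 8-fold difference (7.99, 3.83 to 18.7). Of the 42, set X1 held 39 (209 CPM, 149 to 286) and X2 held 3 (48.3 CPM, 9.96 to 141). The 2 intervals did not overlap, and in X2 the IELs had 0 *Cd74* UMIs, so no fold could be given. The cells with a *Cd74* UMI made up 20.4% (12.8 to 30.1) of the epithelial cluster and 2.21% (0.959 to 4.31) of IELs. The median depths of all epithelial cluster cells and of all these IELs were 1645 and 1038 UMIs. With each cell thinned to 700 UMIs, which left out 13 epithelial cells and 65 IELs, the shares were 9.28% and 1.11%. *Cd74* was the only member of 5 with at least 10 UMIs that was at least 4-fold higher, where 13.6% of 8003 genes were. It reached 10 UMIs only through the epithelial cluster, where it was high, so the minimum partly set this count.

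The chains that *Cd74* serves were not higher in the epithelial cluster than in IELs. *H2-Ab1* had 9 UMIs in 6 epithelial cells (36.2 CPM) and 20 in 18 of the IELs, a ratio of 0.771 (0.309 to 1.77). *H2-Aa* and *H2-Eb1* had 3 UMIs each in the epithelial cluster (12.1 CPM), against 11 and 8 in IELs. For these 3 genes the intervals of the ratio included 1, so neither a higher nor a lower level was detectable at this depth. Among the DM genes, *H2-DMa* had 8 and 21 UMIs, a ratio of 0.652 (0.250 to 1.53), and *H2-DMb1* 5 and 3. *H2-DMb2* was at 0 in the epithelial cluster, which allows 12.1 CPM, and *Ciita* had 2 UMIs there and 0 in IELs, which allows 7.06 CPM. Without *Cd74*, the summed members had 120.8 CPM in the epithelial cluster and 152.9 CPM in IELs, a ratio of 0.790 (0.495 to 1.24). With it, the ratio was 1.67 (1.19 to 2.34).

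The make-up of the class II UMIs differed in the same way. *Cd74* accounted for 50.7% (48.4 to 53.0) of class II UMIs in B cells, 58.3% (46.1 to 69.8) in the epithelial cluster and 12.2% (5.71 to 21.8) in IELs. *H2-Aa* made up 15.9% (14.3 to 17.6) in B cells and 4.17% (0.868 to 11.7) in the epithelial cluster. *H2-DMa* made up 1.13% (0.702 to 1.73) in B cells, 11.1% (4.92 to 20.7) in the epithelial cluster and 28.4% (18.5 to 40.1) in IELs. Neither the epithelial cluster nor the IELs held the members in the proportions of the B cells, since the intervals of *H2-Aa* in the epithelial cluster, of *Cd74* in IELs and of *H2-DMa* in IELs did not overlap with those in B cells. For *H2-DMa* in the epithelial cluster, 5 of its 8 UMIs were in 1 cell. All 15 B cell markers together had 817 UMIs in B cells, 18 in 16 cells of the epithelial cluster (72.5 CPM) and 230 in 145 of the 362 IELs (541 CPM). In IELs they were led by *Cd37* (115 UMIs) and *Ighm* (70 UMIs), with 4 UMIs of *Igkc* and *Cd79a* at 0.

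**Figure D3:**
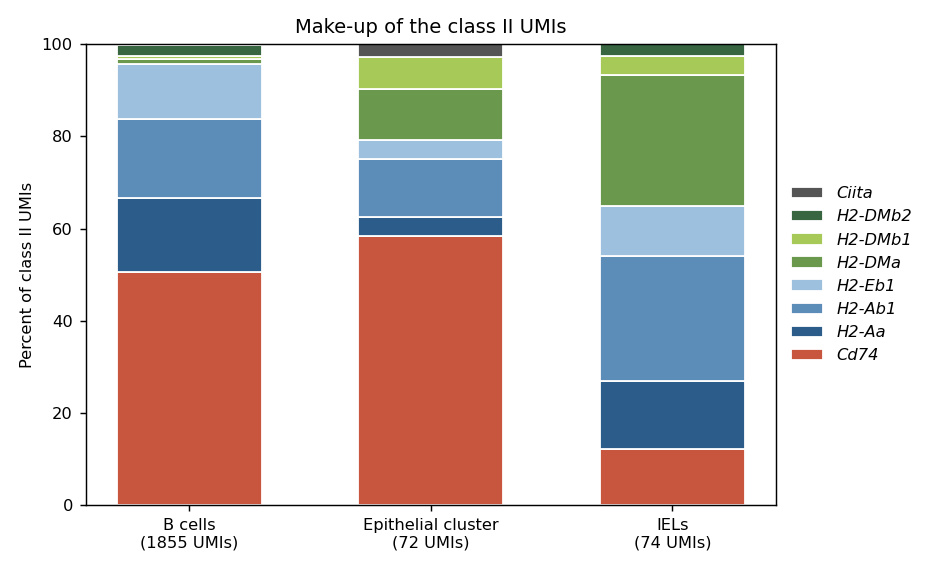
Percent of all class II UMIs that came from each of the 8 genes, in B cells (1855 UMIs), the epithelial cluster (72 UMIs) and IELs outside the subclusters (74 UMIs). Cd74 takes the largest part in B cells and the epithelial cluster and 12.2% in IELs.

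At least 1 class II UMI was present in 22 of 93 epithelial cells, 23.7% (15.5 to 33.6), and in 52 of 362 IELs, 14.4% (10.9 to 18.4). Thinned to 700 UMIs, the shares were 12.4% and 10.0%. With barcodes that differ by 1 base joined, they were 27.8% (18.3 to 39.1) and 14.6% (11.1 to 18.8). The epithelial cells with a class II UMI had a median depth of 3494.5 UMIs and those without 1318, and none had more than 9 class II UMIs or more than 0.243% of its UMIs from these genes. Of the 22 cells, 9 held UMIs of at least 2 members and 1 held 5. *Cd74* was in 5 of the 6 cells with *H2-Ab1* and in all 4 with *H2-DMa*. Among IELs with a class II UMI, 8 held 2 members or more. Dendritic cell and macrophage markers had 16 UMIs in 14 epithelial cells, 15 of *Cd14* and 1 of *Cd68*, and the other 14 of these 16 markers were at 0. They were present in 7 of the 22 cells with a class II UMI and in 7 of the 71 without, and their part was not tested. B cell markers had 18 UMIs in 16 epithelial cells, with *Cd79a*, *Cd79b* and *Pax5* at 0. Without epithelial cells and IELs that held a B cell marker UMI, *Cd74* remained higher in the epithelial cluster, by 11.1-fold (3.98 to 43.1).

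**Figure D4:**
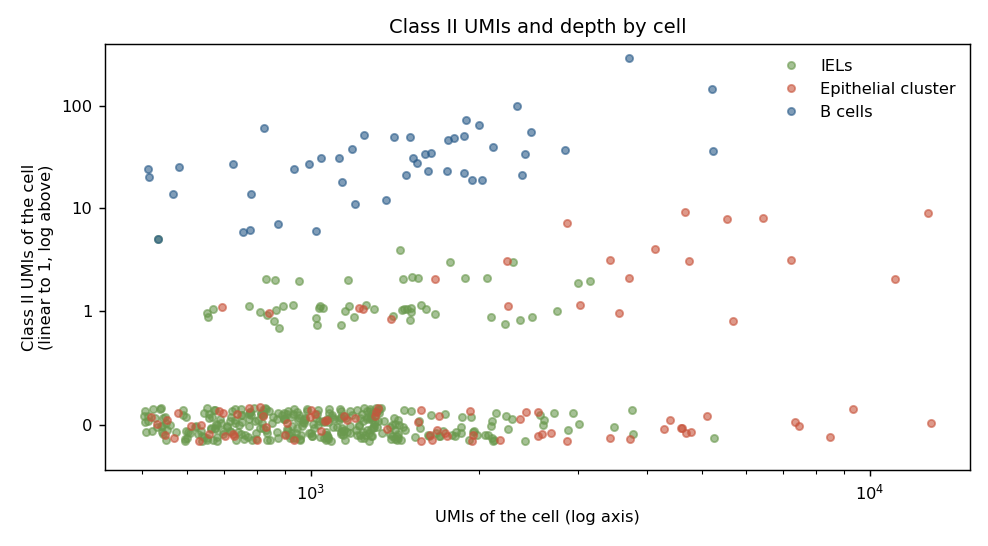
Class II UMIs of each cell (linear to 1, log above) against its total UMIs (log axis) in B cells, the epithelial cluster and IELs outside the subclusters, 1 point per cell with a small vertical jitter. Every B cell had 5 class II UMIs or more, whereas epithelial cells with class II UMIs lie towards higher depth and hold at most 9.

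Within the epithelium, the 8 genes summed to 343 CPM (256 to 449) in absorptive precursors, 188 CPM (100.3 to 322) in stem cells and 124 CPM (71.1 to 202) in secretory precursors. The intervals of absorptive precursors and stem cells overlapped, as did those of stem cells and secretory precursors. *Cd74* had 31 UMIs in 11 of 42 absorptive precursors (204 CPM, 139 to 290), 12 UMIs in 8 of 32 stem cells (174 CPM, 89.8 to 304) and 5 UMIs in 2 of 32 secretory precursors (38.9 CPM, 12.6 to 90.7). Absorptive precursors and stem cells overlapped in *Cd74*, and the interval of secretory precursors lay below that of absorptive precursors. Against the other subcluster cells, *Cd74* was 2.38-fold higher in absorptive precursors (1.27 to 4.58), and its ratio was 0.20 in secretory precursors (0.0617 to 0.503) and 1.35 in stem cells (0.641 to 2.66). In absorptive precursors, both members with at least 10 UMIs, *Cd74* and *H2-Ab1*, were at least 2-fold higher, where 14.7% of 5325 genes were. For *H2-Ab1* this rested on 7 against 3 UMIs (3.04-fold, 0.694 to 18.2), and in set X1 alone it was 1.74-fold (0.339 to 11.2), below the fold. *H2-Ab1* reached 10 UMIs only with those of absorptive precursors, where it was high, so the minimum partly set the tally. In secretory precursors 1 of 2, *Cd74*, was at least 2-fold lower, where 22% of genes were. In stem cells 0 of 2 were at least 2-fold higher, where 18% of genes were, and 0 were lower, where 15.8% were. *H2-Ab1*, with 0 UMIs in stem cells and 10 in the others, could not be called lower. With its 0 set to 3 counts the ratio was 1.22, and the upper limit of the interval was 1.81. With only cells whose labels in the 2 tables do not conflict, *Cd74* was 2.03-fold higher in stem cells (0.945 to 4.08), past the fold.

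Among the stem cells, members other than *Cd74* were nearly all at 0. Stem cells held 0 UMIs of *H2-Aa*, *H2-Ab1*, *H2-Eb1*, *H2-DMa*, *H2-DMb2* and *Ciita* in 69046 UMIs, which allows 43.4 CPM for each, and 1 UMI of *H2-DMb1*. Of the 69046 UMIs, 23205 came from 1 barcode of set X2 with no class II UMI, which the table of all cells places among iIELs, and without it the limit is 65.4 CPM. Absorptive precursors held 7 UMIs of *H2-Ab1* in 5 cells (46.1 CPM), 7 of *H2-DMa* in 3 cells, 3 of *H2-Eb1* and 2 of *H2-Aa*. Secretory precursors held 3 UMIs of *H2-Ab1*, 3 of *H2-DMb1*, 2 of *H2-Aa* and 1 each of *H2-Eb1*, *H2-DMa* and *Ciita*. The 7 *H2-DMa* UMIs of absorptive precursors included 5 in 1 cell. Of the 16 class II UMIs of secretory precursors, 9 were in 1 cell of 12713 UMIs. Over all members but *Cd74*, the ratio of stem cells to other subcluster cells was 0.127 (0.00312 to 0.760). Without that deepest barcode it was 0.191, and the interval, from 0.00470 to 1.14, included 1. That of absorptive precursors was 2.28 (1.07 to 5.08), and 2.01 (0.945 to 4.49) without that barcode, an interval that also included 1. In set X1 alone these ratios were 0.453 (0.0109 to 2.83) and 1.70 (0.653 to 4.73), and both intervals included 1.

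In stem cells the 2 barcode sets differed in *Cd74* when all barcodes were counted. *Cd74* had 11 UMIs in 17 cells of set X1 (428 CPM, 214 to 766) and 1 UMI in 15 cells of set X2 (23.1 CPM, 0.584 to 129). Of the 43357 UMIs of X2 stem cells, 23205 came from the deepest barcode, which held no class II UMI. The X2 level would be higher without it, and whether the sets then differ was not tested. Without that barcode, the *Cd74* ratio of stem cells to other subcluster cells was 2.04 over both sets (0.966 to 4.01). The ratio was past the fold of 2, and that of absorptive precursors was 2.10 (1.13 to 4.04). Within X1, *Cd74* was 3.02-fold higher in stem cells than in the other subcluster cells (1.38 to 6.12). Absorptive precursors had 229.6 CPM of *Cd74* in X1 (154 to 330) and 2 UMIs (78.5 CPM, 9.51 to 284) in X2, and the intervals overlapped. Secretory precursors had 37.6 CPM in X1 and 44.9 CPM in X2. T lineage markers had 29 UMIs in 5 of the 42 absorptive precursors and 1 UMI in each other subcluster. Without subcluster cells that held a B cell marker UMI, the *Cd74* ratio of absorptive precursors was 2.84 (1.37 to 6.23), and all 6 remaining *H2-Ab1* UMIs were theirs. Dendritic cell and macrophage markers, mostly *Cd14*, had 85.7 CPM in absorptive precursors (9 of 42 cells), 72.4 CPM in stem cells (5 of 32) and 23.3 CPM in secretory precursors (3 of 32). The part of the T lineage and of these markers was not tested.

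**Figure D5:**
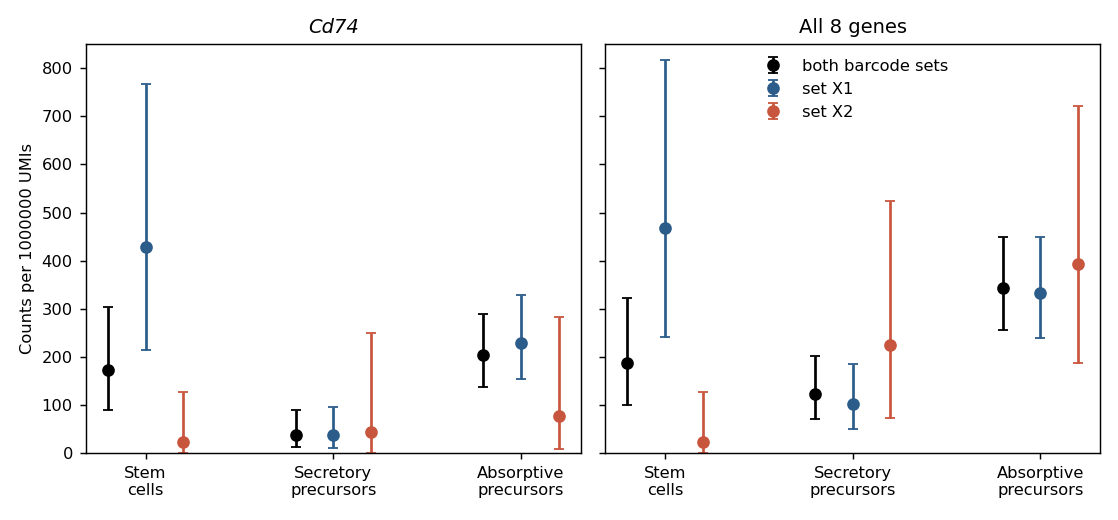
Counts per 1000000 UMIs of Cd74 (left) and of all 8 genes (right) in stem cells, secretory precursors and absorptive precursors, over both barcode sets and in each set. Points are levels over summed cells and bars exact Poisson 95% intervals. Cd74 is lowest in secretory precursors over both sets. Stem cells of set X1 lie above those of set X2, where 1 barcode with no class II UMI gave 23205 of 43357 UMIs.

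IELs carried few class II UMIs, 38 in 175 iIELs (205 CPM, 145 to 282) and 36 in 187 nIELs (150.0 CPM, 105 to 208). *H2-DMa* was the most frequent member in nIELs, with 13 UMIs in 11 cells (54.2 CPM), and *H2-Ab1* in iIELs, with 12 UMIs in 10 cells (64.8 CPM). *Cd74* had 6 UMIs in iIELs and 3 in nIELs, a ratio of 2.59 (0.554 to 16.0). None of the 3 members with at least 10 UMIs was 2-fold higher or lower in iIELs, where 9.08% of genes were higher, and 10.1% lower, so no difference between the IEL types was detectable at this depth. Mouse T cells are known to make little class II. Dendritic cell and macrophage markers had 31 UMIs in 11 of the 362 IELs. Of these, 20 were in 1 cell, the only IEL with a class II UMI that held any. Free RNA was not measured here, and the source of the IEL UMIs was not tested. The markers in nIELs included 63 UMIs of *Ighm*, an immunoglobulin heavy chain gene, with *Igkc* at 0. The 15 B cell markers together had 159 UMIs in 96 of the 187 nIELs and 71 in 49 of the 175 iIELs, and their part in the IEL class II UMIs was not tested.

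Other genes of the pathway were read from a list of 28, of which 27 were in the matrix. In B cells 7 of 23 with at least 10 UMIs were at least 4-fold higher and 0 lower, where 2.86% and 3.11% of all genes were. *H2-Oa* and *H2-Ob*, which encode the DO heterodimer that restrains DM in B cells, had 16 and 18 UMIs in B cells and 1 each elsewhere, ratios of 162 (25.1 to 6780) and 182 (28.7 to 7578). Both reached 10 UMIs only through the B cells, where they were high, so this minimum partly set the count of 7. The endosomal proteases *Ctsh* (22.5-fold, 11.4 to 47.2), *Ctss* (7.25-fold, 5.05 to 10.4) and *Ctsl* (4.16-fold, 1.46 to 10.6) were higher, as was *Ifi30* (6.83-fold, 3.94 to 11.6), the reductase that opens disulfide bonds of antigens. The proteases *Lgmn* (3.79-fold, 0.647 to 15.8), *Ctsb* (1.86-fold, 1.23 to 2.75) and *Ctsd* (ratio 0.541, 0.195 to 1.22) did not reach 4-fold. Cathepsin S is known for the last cut of the invariant chain. *H2-Eb2*, also among the 7, had 5 UMIs in B cells and 7 elsewhere, 7.22-fold higher (1.81 to 26.4). It too reached 10 UMIs only with those of the B cells. The costimulatory genes *Cd86* and *Cd40* had 5 UMIs each in B cells and 0 in other assigned cells, at least 16.8-fold higher against a floor of 3 counts over the group, with 9.26 as the lower limit of the interval, and both fell short of 10 UMIs and were not counted. *Cd80*, also costimulatory, had 0 UMIs in B cells and 2 elsewhere. The X box and Y box factors with at least 10 UMIs were detected at low levels and none was 4-fold higher or lower. *Rfxap* (1 and 13 UMIs), *Rfxank* (1 and 12) and *Nfyb* (11 and 59) had ratios of 0.777, 0.842 and 1.88.

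In the epithelial cluster, 2 of 18 pathway genes were at least 4-fold higher than in IELs and 1 lower, where 13.6% and 10.7% of all genes were, so the list did not exceed the background. *Ifngr2*, the signalling chain of the interferon-γ receptor, had 29 UMIs against 1 (49.7-fold, 8.23 to 2028) and *Ctsl* 10 against 4 (4.28-fold, 1.23 to 18.7). Both reached 10 UMIs only through the epithelial cluster, where they were high, so the minimum partly set the count of 2. *Ifngr1*, the binding chain, had 17 against 120 (ratio 0.243, 0.137 to 0.405). *Irf1*, an interferon-induced transcription factor that acts on *Ciita*, had a ratio of 0.306 (0.139 to 0.605). Among the subclusters, absorptive precursors had 3 of 14 pathway genes at least 2-fold higher and 1 lower, where 14.7% and 15.6% of all genes were, which is near the background. The first 3 were *Ctss*, with 43 of 48 subcluster UMIs (11.2-fold, 4.45 to 36.2), *Ctsb* (3.51-fold, 2.14 to 5.94) and *Ifngr1* (4.17-fold, 1.46 to 14.5). *Ctss* and *Ifngr1* had 5 UMIs each in the other subclusters. They reached 10 only through absorptive precursors, so the minimum partly set the count of 3. *Creb1*, which binds cAMP response elements, had 5 UMIs against 14. *Ctss* had 283 CPM in absorptive precursors, 29.0 CPM in stem cells and 23.3 CPM in secretory precursors.

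The genes most like the summed members across the 516 assigned cells were ranked by Pearson correlation over 6034 genes, as a description of cells that share libraries and depth. *Igkc* was first (r = 0.690), followed by *Iglc3* (0.578), *Ly6d* (0.568), *Ly86* (0.545) and *Apoe* (0.466). *Bcl11a*, *Mef2c*, *Ctsh*, *Rnase6* and *Blnk* completed the first 10, with r from 0.455 to 0.367. Each of the 10 had more UMIs in the 47 B cells than in any other cluster. *Ctsh*, a member of the pathway list, had 29 UMIs in B cells. *Blnk*, an adaptor of the B cell receptor, had 17 UMIs in B cells and also 15 in the epithelial cluster. Among the members, the correlation with the sum of the others was highest for *Cd74* (0.833), *H2-Aa* (0.815), *H2-Ab1* (0.805) and *H2-Eb1* (0.759). It was 0.658 for *H2-DMb2*, 0.307 for *H2-DMb1*, 0.272 for *H2-DMa* and 0.146 for *Ciita*.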

How the data were processed

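The authors counted the Drop-seq libraries with the McCarroll pipeline. STAR 2.5.0, Picard 1.137, mm10 and hg19 (for the human carrier cells) are listed in the notes of the submitters. The counts were deposited as UMIs per gene and barcode without normalization, in 1 matrix for both pools. Whether counting used strand is not given in the sources used here, and *H2-DMa*, *H2-Eb1* and *Ciita* overlap genes on the opposite strand. Cells were joined by barcode to the authors' clusters. Members, marker lists (B, T, plasma, epithelial, dendritic cell and macrophage, and group 3 innate lymphoid cells) and pathway list were chosen with earlier results of these data known. Levels were summed UMIs per 1000000 with Poisson intervals, shares had Clopper-Pearson intervals, and folds exact binomial intervals. A call was a fold of 4 (clusters) or 2 (subclusters, IEL types) with at least 10 UMIs. A group at 0 was set to 3 counts. Shares were thinned to 700 UMIs in 100 draws. Correlations over the 47 B cells used UMIs per 1000000 of each cell without a log. Those over all assigned cells used the log of 1 plus UMIs per 10000. The ranking over genes took genes with at least 20 UMIs that were present in both barcode sets. All 8 members and the pathway list were named whatever their values. Plasma cell markers had 36 UMIs in B cells, 19 in the epithelial cluster and 10 in IELs, and markers of group 3 innate lymphoid cells 2, 15 and 37. Scrublet, in scanpy 1.11.5, called 0 of 516 cells doublets. Fold estimates were also tried on simulated data, of which no values are given here. Python 3.11.15, numpy 2.4.6, pandas 2.3.3 and scipy 1.17.1 were used.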

Additional observations from a re-analysis of the deposited data

Results flagged for a closer look

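Class II UMIs were also present in the 601 barcodes that the authors placed in no cluster, which enter no comparison above. These barcodes held 219 class II UMIs, or 1275 CPM (1112 to 1456), where 3 counts would give 17.5 CPM. *Cd74* had 111 of them (646 CPM, 532 to 778). Mitochondrial genes made up 36.8% of the UMIs in the 601 barcodes, against 3.83% in assigned cells, and these count in the CPM. The median depth of the 601 barcodes was 212 UMIs. Only 43 of the 601 barcodes had a class II UMI, and 19 barcodes of between 105 and 416 UMIs held 190 of the 219. In these 19, B cell markers had 50 UMIs in 10 barcodes. The barcode with the most had 34 class II UMIs of 248 (13.7%), with 16 UMIs of *Cd74*, 9 of *Lyz2*, 5 of *C1qb*, 1 each of *C1qa* and *Csf1r*, and no B cell marker. Of the barcodes with a class II UMI, 1 was a single base away from an assigned barcode, a B cell. Which cells these barcodes hold was not tested.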

How the results depend on the processing

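No paired analysis was possible because both pools share 1 matrix and no cell can be tied to a pool. Of 112 alternative values for 9 results, 93 stayed within the interval of the reported value, or within 1.5 times a count. The others moved further. Part of the 93 could not move, so the tally is no measure of robustness. No cell was called a doublet, so that removal changed nothing. For the epithelial and IEL values, removing conflicting labels, the 3 B cluster cells or the deepest stem cell barcode took out no cell. Set X2 alone, of 62 assigned cells, gave a B cell fold of 201 for the summed members, 4 members at least 4-fold higher in B cells and 0 in the epithelial cluster, an IEL share of 10%, and subcluster ratios of 0.0734 for stem cells, 4.29 for absorptive precursors and, in the other direction, 1.40 for secretory precursors. Set X1 alone gave 2.05 for stem cells. Ratios that crossed 1 were the secretory precursor ratio in X2, the stem cell ratio in X1, by the mean of cells (1.39), without conflicting labels (1.12) and without the deepest stem cell barcode (1.17), and the epithelial ratio to IELs without *Cd74*. Without *Cd74* the B cell fold was 94.3, the epithelial ratio to IELs 0.790, the stem cell ratio 0.127, the secretory precursor ratio 0.858 and the share of epithelial cells with a UMI 12.9%. The secretory precursor ratio was 0.198 as a mean over cells and 0.159 without subcluster cells that held a B cell marker UMI. Requiring 2 UMIs gave shares of 14.0% in the epithelial cluster and 4.14% in IELs, and thinning to 700 UMIs 12.4% and 10.0%. The cause of these differences was not tested. The removals of 3 B cluster cells with dendritic cell and macrophage markers and of the deepest stem cell barcode were chosen after seeing the data. Outside B cells each member but *Cd74* had only 2 to 30 UMIs, which limits how finely their levels there can be compared.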
